A study of Mus musculus with 8 samples.

Results

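The break peaks described here lie in 5′ untranslated exons of mouse genes. They come from DSB-seq of Chd1 KO (Chd1Δ/Δ) embryonic stem (ES) cells, an established line, and of control (Chd1fl/Δ) ES cells. Both genotypes thus carried a deleted Chd1 allele, and the control kept a floxed allele. Cells were grown in medium with serum and LIF without a further treatment, and each genotype had 2 replicates. In DSB-seq, broken DNA ends in fixed nuclei are tagged with biotin-16-dUTP by terminal transferase (TdT), and the tagged fragments are captured after sonication and sequenced. The authors combined the replicates before peak calling, so there is 1 list of peaks per genotype, and no value below has a replicate error. The lists hold no expression values, so neither the cell type nor the genotype was checked from them.

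A Chd1 KO peak was taken when its summit, the base with the highest signal, met 3 conditions. It lay in a 5′ untranslated region (UTR) exon of a protein-coding transcript of the GENCODE M1 annotation (mm9). It also lay more than 100 bp downstream of the nearest transcription start site (TSS), and in no coding sequence. These conditions use position only, not peak height. They held for 377 of the 5671 Chd1 KO peaks (6.65%, Wilson 95% interval 6.03 to 7.33%). The 377 peaks lay in 376 genes, since Gatad2a, which encodes a subunit of the NuRD chromatin complex, had 2. All intervals given for shares and densities cover counting error only.

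The 5′ UTR is the stretch of an mRNA between its cap and its start codon, which the small ribosomal subunit scans before translation begins. In mammals it is often rich in G and C, because many promoters lie in CpG islands that run on into the first exon. RNA polymerase II tends to pause shortly after initiation, in the stretch of DNA that encodes the start of the 5′ UTR. Chd1, a remodeler of chromatin driven by ATP, travels with transcribing polymerase and shifts nucleosomes. Triplet repeats of CGG are found in 5′ UTRs of several human genes, where their expansion causes neurological disease.

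The sequences under the summits were rich in G and C, and in a minority of peaks the 30 bases around the summit held a long unbroken stretch of these bases. In these 30 bases, 124 of the 377 peaks (32.9%, 28.3 to 37.8%) held a stretch of 12 bp or more made of G and C alone. Only the part of a stretch inside the 30 bases was counted, and no share for windows of equal GC content was computed. Those 30 bases are shown first for the 10 highest peaks by fold enrichment, in order of height, because they range from pure G and C to mixed sequence. Fold enrichment is the authors' ratio of reads at the summit to the local background. Pdgfc encodes a ligand of the platelet-derived growth factor receptors, Psme4 a proteasome activator, and Cdc73 a subunit of the Paf1 complex of elongating polymerase. Ttbk1 encodes a kinase of tau and tubulin, Kcnmb4 a regulatory subunit of the BK potassium channel, and Kcng3 a modulatory subunit of voltage-gated potassium channels. B930041F14Rik is named only as in the annotation. Mtmr9 belongs to the myotubularin family, Slit3 is a secreted ligand of Robo receptors, and Ncor1 is a corepressor of nuclear receptors. Each line gives 30 bases of mm9 on the strand of the transcript, 5′ to 3′, and capitals mark such stretches of 12 bp or more.
Pdgfc, chr3:80840468-80840497, plus strand: GCGCCCCCCGCGCCCCCCGCGCCCGCCCGG
Psme4, chr11:30671901-30671930, plus strand: ggcgaggcgacgcggacgaggctgagcccg
Ttbk1, chr17:46624493-46624522, minus strand: cgccgccaccgccggagggagcgggccgcc
Kcnmb4, chr10:115910757-115910786, minus strand: cacccgggagcccggcctcgggcagcgccg
Cdc73, chr1:145549896-145549925, minus strand: ctgtcgtagacgcggccggctgttgagtgt
B930041F14Rik, chr4:155068556-155068585, plus strand: ccgcgccccgtgcgctcgcgagcccgcgcc
Mtmr9, chr14:64162549-64162578, minus strand: ctcgacctCCCGGGCCCGCCCagccggggc
Kcng3, chr17:84031108-84031137, minus strand: gccacctggagctgcggccagccacccgga
Slit3, chr11:34934923-34934952, plus strand: GCCGCCCGCCCCCCaGGCCGCCCGCGCGCC
Ncor1, chr11:62270671-62270700, minus strand: ccccggtcgtccggccgtGGGGCGCGCCGG
The Pdgfc stretch had no A or T at all, and that of Slit3 was broken by a lone A. Within the 30 bases such a run of 12 bp was held by 4 of the 10, Pdgfc, Mtmr9, Slit3 and Ncor1, and by none of the other 6. A run of 23 bp in B930041F14Rik lay partly outside its 30 bases.

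The longest CGG or CCG repeats within 200 bp around a summit are shown next, since CGG repeats are known from 5′ UTRs of several human genes. Rundc3b encodes a protein with a RUN domain, Slc35f4 a protein of the solute carrier family of nucleotide sugar transporters, Sos1 a guanine nucleotide exchange factor that activates Ras, and Marveld1 a MARVEL domain membrane protein. Fxr2 encodes an RNA-binding relative of the fragile X protein, and Ezh2 the histone methyltransferase of Polycomb repressive complex 2. Gm15800 is named only as in the annotation. Capitals mark the repeat.
Rundc3b, chr5:8622548-8622577, minus strand: ccgCGGCGGCGGCGGCGGCGGCGGCGGcaa
Cdc73, chr1:145549855-145549883, minus strand: ttcgCGGCGGCGGCGGCGGCGGCGGgggg
Gm15800, chr5:121670290-121670316, plus strand: ggCGGCGGCGGCGGCGGCGGCGGggcc
Slc35f4, chr14:50145360-50145388, minus strand: ccagCGGCGGCGGCGGCGGCGGCGGtacc
Fxr2, chr11:69446557-69446586, plus strand: cgaaggCGGCGGCGGCGGCGGCGGccgttt
Ezh2, chr6:47544809-47544838, minus strand: ccggggCGGCGGCGGCGGCGGCGGcgatcg
Sos1, chr17:80879453-80879482, minus strand: gggatgCCGCCGCCGCCGCCGCCGggttgc
Marveld1, chr19:42222103-42222132, plus strand: ggggcgCCGCCGCCGCCGCCGCCGcgtccg
Rundc3b had 8 CGG units in a row, Cdc73, Gm15800 and Slc35f4 had 7, and Fxr2 and Ezh2 had 6. In Sos1 and Marveld1 the transcript strand carried 6 units of CCG, so the CGG units lay on the other strand. The peak of Usp6nl, named after its value was seen, also had 6 units of CCG, and is not shown because the rule took 8 peaks.

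The longest runs of G and C are shown last. The first 30 bases of each run are given, all of them G or C. B3gat3 encodes an enzyme that builds the linker of proteoglycans, Usp12 a deubiquitinase, Nbea a scaffold of neurons with a BEACH domain, and Dlg5 a scaffold of cell polarity.
Pdgfc, chr3:80840460-80840489, plus strand: GGCCGCCCGCGCCCCCCGCGCCCCCCGCGC
B3gat3, chr19:8994947-8994976, plus strand: GGCGGGGCGCGGCCCGGGCGGCCGGGGCGG
Usp12, chr5:147606416-147606445, minus strand: GCCGGGGGCGGGCGGGCGGCCGGCGGGCGG
Nbea, chr3:55987220-55987249, minus strand: GGCGCCGGCCGGGGGGCGGGGGCCGCGGCG
Dlg5, chr14:25064679-25064708, minus strand: CCGGCGGGGCGGGGCGGGGCGGCGCGGGCC
The whole runs were 43 bp long in Pdgfc, 40 bp in B3gat3, 34 bp in Usp12 and 33 bp in Nbea and Dlg5. In the transcript strand shown, the Pdgfc run was mostly C and the Dlg5 run mostly G.

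The 5′ UTR peaks had heights and widths near those of Chd1 KO peaks in other sequence near TSSs. Their fold enrichment had a median of 4.54 (quartiles 4.04 and 5.20) and ranged from 3.07 to 7.68. At the summit a median of 22 extended reads (range 13 to 41) stood over a local background of 3.98. Both were computed back from the deposited fold enrichment and p-value. The median −log10 q-value was 5.80 (range 2.01 to 19.1), and the median width was 334 bp (quartiles 259 and 439 bp). Peaks of core promoters, coding exons and introns, classes defined below, had a median fold enrichment of 4.54, 4.35 and 4.53. Their median widths were 315, 303 and 301 bp, with quartiles that overlapped those of the 5′ UTR peaks. The combined depth that the lowest background implies was about 29800000 reads in Chd1 KO and 27600000 in control. A site with fewer than 13 reads at its summit was not called in Chd1 KO, so weaker 5′ UTR sites lie outside the reach of the list.

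None of the 377 peaks was overlapped by a control peak, which allows a share of up to 0.796%. The control list held 54 peaks, and the nearest control summit lay 35.9 kb from a summit in a 5′ UTR. With so short a list, few Chd1 KO peaks of any class could be overlapped. The share overlapped among all 5671 Chd1 KO peaks was not computed, so the lack of overlap cannot be read as a trait of 5′ UTR peaks. The control list stopped at a −log10 p-value of 7.13, the Chd1 KO list at 4.88. Of the 377 peaks, 332 (88.1%, 84.4 to 91.0%) had a −log10 p-value that would also have passed the limit of the control list. With 1 list per genotype the difference has no replicate check, and it cannot be told apart from a difference between the combined libraries.

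The highest peak was that of Pdgfc, with a fold enrichment of 7.68 (38 reads over 4.08). Its summit, at chr3:80840483, lay 145 bp downstream of the TSS in an exon of 1139 bp, and 876 bp before the start codon. Psme4 followed with 7.20 (36 reads over 4.14), 190 bp downstream of the TSS and 67 bp before the start codon. Ttbk1 had 7.00 and the most reads of all, 41 over 5.00. The summits of all 3 lay in exon 1, and each of these peaks covered the TSS as well.

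Kcnmb4 had a fold enrichment of 6.86 with its summit 162 bp downstream of the TSS. Cdc73 had 6.80, 112 bp downstream, and its 7 CGG units lay centred 42 bp further downstream. B930041F14Rik had 6.72, only 39 bp before the start codon. Mtmr9 had 6.61, and its peak of 309 bp did not reach the TSS, 226 bp away, but did reach coding sequence. Kcng3 had 6.45. The remaining members of the 10 highest were Slit3 with 6.33 and Ncor1 with 6.22. The GC content around the 10 summits ranged from 76.0% in Mtmr9 to 85.5% in Kcnmb4, so the highest peaks included some with less than the median GC content.

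Most summits lay just past the core promoter. The distance to the nearest TSS had a median of 191 bp (quartiles 133 and 269 bp), and 204 peaks (54.1%, 49.1 to 59.1%) lay 101 to 200 bp downstream. Another 141 (37.4%, 32.7 to 42.4%) lay 201 to 400 bp downstream, 27 lay 401 to 800 bp downstream, and 5 lay farther. Fold enrichment had a median of 4.54 (quartiles 4.04 and 5.25) up to 200 bp, of 4.54 (4.06 and 5.04) from 201 to 400 bp and of 4.50 (3.91 and 4.83, n = 32) beyond. Height thus varied within each distance class far more than between the classes.

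The farthest summit was that of Cspg5, a chondroitin sulfate proteoglycan of the nervous system, 1605 bp downstream of the TSS with a fold enrichment of 4.66. Tmem215 followed at 1061 bp with 4.54. Inhbb, the beta B subunit of inhibin and activin B, followed at 965 bp with 4.83 and a peak 763 bp wide. All 3 lay in exons of over 1 kb, of 1912, 1425 and 1622 bp. The peaks nearest to the limit of 100 bp did not stand apart from those just outside it. Inside were Tmcc1 (101 bp, fold enrichment 5.35), Smurf1 (101 bp, 5.06) and Pam (102 bp, 4.54), and outside were Vdac1 (100 bp, 3.88), Gmeb2 (98 bp, 6.48) and Zfp385b (98 bp, 4.41).

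**Figure D1:**
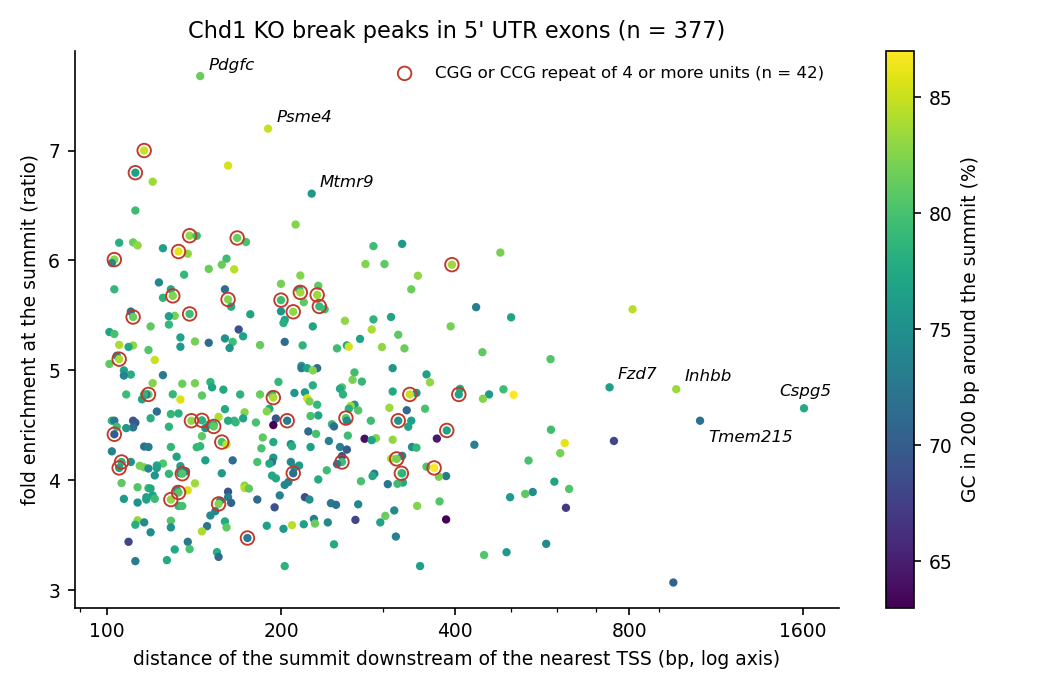
Fold enrichment at the summit (vertical axis, a ratio) against the distance of the summit downstream of the nearest TSS (horizontal log axis, bp) for the 377 Chd1 KO peaks in 5′ UTR exons, 1 point per peak, colored by GC content in 200 bp, with red rings around the 42 peaks that hold a CGG or CCG repeat of at least 4 units. Most points lie between 101 and 400 bp, and points of low and high fold enrichment occur at each distance up to 400 bp, while Cspg5 at 1605 bp stands alone.

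Exon 1 held 370 of the 377 summits (98.1%, 96.2 to 99.1%), and later 5′ UTR exons held 7. In 233 peaks (61.8%, 56.8 to 66.6%) the exon also contained the start codon, and the summit then lay a median of 115 bp (quartiles 59 and 207 bp) before it. In the other 144 peaks the exon was wholly untranslated, and the summit lay a median of 99.5 bp before the exon's end. Exons with a peak had a median length of 425 bp, and the 5′ UTR as a whole had one of 364 bp.

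The peaks often ran past the 5′ UTR exon. The nearest TSS was covered by 159 of them (42.2%, 37.3 to 47.2%), coding sequence of the same transcript was reached by 144 (38.2%, 33.4 to 43.2%), and the end of the exon was covered by 149 (39.5%, 34.7 to 44.5%). A further peak of the same gene with its summit within 100 bp of a TSS was found for 14 (3.71%, 2.22 to 6.14%). The class of a peak therefore says where its summit lay, not where all of its signal lay.

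Among the 7 summits in a later exon were those of Eif5 and Fzd7. Eif5, which encodes a translation initiation factor that triggers GTP hydrolysis by eIF2, had a fold enrichment of 5.02 in its second exon. Fzd7, a Wnt receptor, had 4.85 in an exon of 4100 bp, 740 bp downstream of the nearest TSS and 41 bp before the start codon. By any transcript's exon 1, 373 summits lay in the 1.83 Mb of first exons that met the conditions and 4 in the 0.529 Mb of later ones, a density 26.9 times as high. At equal GC content and distance the ratio was 0.938 (95% interval 0.335 to 2.63), which is too wide to show a difference in either direction.

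GC content around the summits was high and varied little. In the 200 bp around the summit its median was 78% (quartiles 75 and 81%, range 63 to 87%), against a median of 54.5% over all 5′ UTR windows that met the conditions. The ratio of observed to expected CpG had a median of 0.969, so CpG dinucleotides were about as frequent as the base composition gives. The longest run of G and C had a median of 17 bp, and 346 peaks (91.8%, 88.6 to 94.1%) had one of at least 12 bp. Among all 5′ UTR windows 20.0% had such a run, and among windows with the GC content of the peaks 87.6%. Peaks of core promoters, coding exons and introns had a median GC content of 78%, 77% and 77%. Such a run was in 93.1%, 89.2% and 92.4% of them, so neither trait was particular to 5′ UTR peaks.

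Peaks with more GC tended to be higher and wider. Below 75% GC (86 peaks) the median fold enrichment was 4.17 (quartiles 3.78 and 4.54), from 75% to under 80% (160 peaks) 4.58 (4.11 and 5.20), and from 80% (131 peaks) 4.78 (4.16 and 5.51). The median width rose along with it, from 274 to 324 and 388 bp. The quartiles of the fold enrichment overlapped between neighboring classes. No TdT-free or input library was analyzed here, so the part that recovery of GC-rich DNA in the libraries has in these values was not tested.

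Within a gene, the summit tended to have more GC than most of the gene's 5′ UTR bases that met the conditions. The summit had a higher GC content than a median of 67.2% (quartiles 46.6 and 85.4%) of the bases of the same gene that met the conditions. The summit's GC content was above the median over those bases in 272 of the 377 peaks (72.1%, 67.4 to 76.4%), and not in the others. In the 108 peaks of genes with at least 400 such bases, where the summit had more room, the median share of bases with less GC was 83.6% (quartiles 69.7 and 91.3%). In 101 of these 108 (93.5%, 87.2 to 96.8%) the summit's GC content was above the median over the gene's bases.

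**Figure D2:**
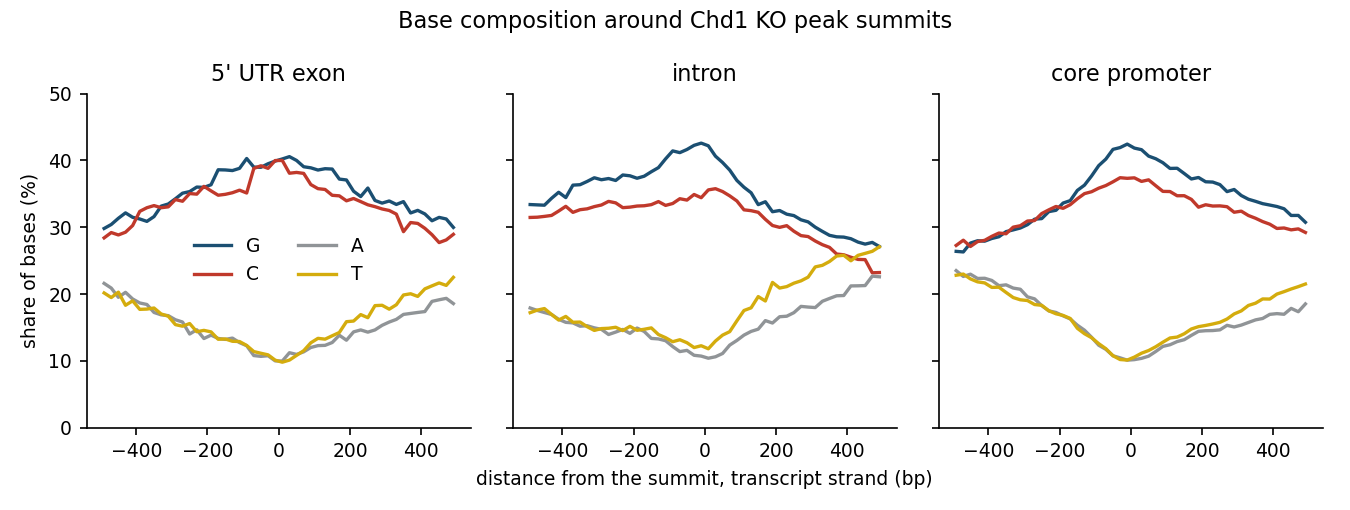
Share of G, C, A and T (vertical axis, %) in bins of 20 bp by distance from the summit (horizontal axis, bp, on the strand of the nearest transcript) for Chd1 KO peaks in 5′ UTR exons (377 peaks), introns (830) and core promoters (1560). In 5′ UTR exons G and C lie close together at 40.2% and 40.0% in the bin just past the summit, whereas in introns and core promoters the line of G lies above that of C there.

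To see whether 5′ UTR exons differed from other sequence near TSSs, the density of summits was compared with that in 3 other classes of sequence. These were coding exons more than 100 bp downstream of the nearest TSS, introns 101 to 3200 bp downstream, and core promoters, the bases within 100 bp of a TSS. The 5′ UTR exons held 377 summits in 2.36 Mb, or 160 per Mb. Core promoters held 117 per Mb, coding exons 17.5 per Mb and introns 9.65 per Mb. Without regard to GC content, the density in 5′ UTR exons was 1.37 times that in core promoters, 9.15 times that in coding exons and 16.6 times that in introns.

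Within 5′ UTR exons, density depended steeply on GC content. In the 1.51 Mb with less than 60% GC no summit was found, which allows up to 2.44 per Mb (exact Poisson interval). Density was 16.5 per Mb (4.51 to 42.4) from 60 to 65% GC, 56.0 (28.9 to 97.8) from 65 to 70%, 358 (279 to 452) from 70 to 75% and 1173 (999 to 1370) from 75 to 80%. It reached 2273 per Mb (1880 to 2724) from 80 to 85%, and was 2002 per Mb (1094 to 3359, 14 peaks) above. The other 3 classes rose over the same range, to 2576 per Mb in coding exons, 2696 in introns and 2618 in core promoters from 80 to 85% GC.

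At equal GC content, and for exons and introns at equal distance from the TSS, 5′ UTR exons had nearly the density of the other classes. The pooled ratio of densities (Mantel-Haenszel) was 1.02 (95% interval 0.877 to 1.18) against coding exons, 0.916 (0.802 to 1.05) against introns and 0.897 (0.801 to 1.00) against core promoters. Each of the 3 intervals included 1, and differences beyond their bounds were not seen. With GC content taken over 500 bp the intervals no longer included 1, with ratios of 1.19 against coding exons, 0.870 against introns and 0.812 against core promoters. With a window of 100 bp they were 1.00, 1.01 and 0.950. Over these 3 windows the ratio thus stayed below 1 against core promoters and did not fall below 1 against coding exons, while against introns its direction changed.

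**Figure D3:**
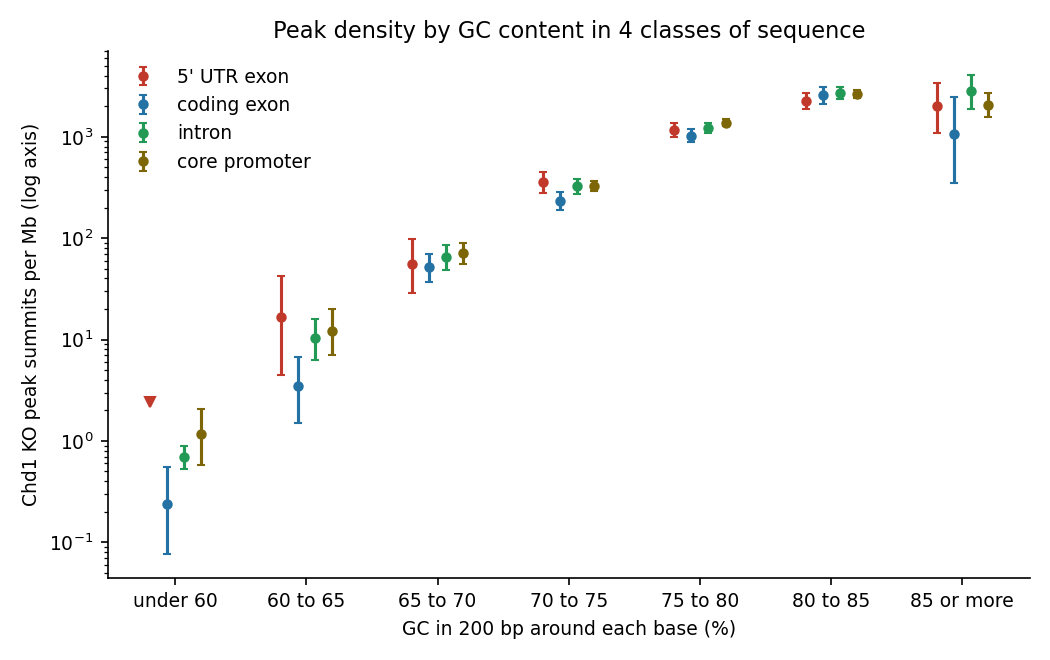
Density of Chd1 KO peak summits (vertical log axis, summits per Mb) by GC content in 200 bp around each base (horizontal axis, %) in 5′ UTR exons, coding exons, introns and core promoters, with exact Poisson 95% intervals. A triangle marks the upper limit where 5′ UTR exons had 0 summits, below 60% GC. In each class density rises by more than 100 times from 60 to 85% GC, and the intervals of the 4 classes mostly overlap at a given GC content, with coding exons lowest from 60 to 80%.

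Density was also compared along the 5′ UTR. With at least 80% GC it was 2273 per Mb (1775 to 2867) from 101 to 200 bp, 2282 (1677 to 3034) from 201 to 400 bp and 2027 (1012 to 3627) from 401 to 800 bp. From 70 to under 80% GC it was 689 (574 to 821), 792 (635 to 975) and 435 (238 to 729, 14 peaks) at these distances. Over strata of GC content, the ratio of densities from 401 to 800 bp was 0.773 (0.517 to 1.15) against 101 to 200 bp and 0.694 (0.461 to 1.05) against 201 to 400 bp. That from 201 to 400 bp against 101 to 200 bp was 1.10 (0.891 to 1.37). These ratios were added after the densities were seen. All 3 intervals included 1, and those of the farthest class, which rest on 27 peaks, were too wide to tell an equal density from a clearly lower one.

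Seen by gene, 376 of the 12314 protein-coding genes with 5′ UTR sequence that met the conditions had a peak in it, or 3.05%. No gene whose GC-richest 200-bp window there held less than 65% GC had one, and 1 of 1622 genes between 65 and 70% did. The share was 1.24% (20 of 1610 genes) from 70 to 75%, 7.35% (107 of 1455) from 75 to 80%, 26.1% (201 of 769) from 80 to 85% and 30.1% (23.5 to 37.7%, 47 of 156) above. Most genes with a very GC-rich 5′ UTR thus had no called peak there.

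The share of GC-rich genes with a peak also rose with the number of bases that met the conditions. More such bases give more places for a summit, and an effect of length itself was not tested. Among the 2380 genes whose richest window held at least 75% GC, the share with a peak was 6.12% (4.59 to 8.12%) where up to 100 bases met the conditions, 13.5% (11 to 16.4%) for 101 to 200 bases, 20.5% (17.5 to 23.8%) for 201 to 400 and 23.6% (19.8 to 27.8%) for more. Genes with peaks were spread over all 19 autosomes, from 1.61% of such genes on chromosome 7 to 4.96% on chromosome 19. On the X chromosome 0 of 568 genes had one, where 12 peaks of the whole list lay. Among the 44 X-linked genes with a richest window of at least 75% GC, 0 had a peak, which allows up to 6.82%, against 355 of 2336 autosomal genes (15.2%, 13.8 to 16.7%). The cause of this difference was not tested.

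A CGG or CCG repeat of at least 4 units in a row, on the strand of the transcript, lay within the 200 bp around 42 of the 377 summits (11.1%, 8.35 to 14.7%). Of all 5′ UTR windows that met the conditions 1.57% had one, and of those with the GC content of the peaks 11%. The share was thus well above that of all windows, and about that of windows equally rich in GC. CGG units were found in 24 peaks and CCG units in 18. Coding exon peaks had such a repeat in 11.3% and core promoter peaks in 9.81%, with differences from 5′ UTR peaks of −0.15 percentage points (Newcombe 95% interval −4.49 to 4.30) and 1.33 points (−1.87 to 5.17). In intron peaks the share was 3.61%, lower by 7.53 points (4.36 to 11.3), and intron windows of the same GC content had one in 5.02%.

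Peaks with a repeat were about as high as the others. Their fold enrichment had a median of 4.66 (quartiles 4.17 and 5.64), against 4.53 (4.00 and 5.12) in the 335 without one. Rundc3b, with the longest repeat, had 4.54 (18 reads over 3.18), Slc35f4 had 4.06, Fxr2 4.49, Ezh2 4.06, Sos1 4.78, Marveld1 4.55 and Gm15800 5.65. Of the 8 peaks with the longest repeats shown above, Cdc73 was the only one among the 10 highest.

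Repeats often lay off the summit. The middle of the repeat lay within 50 bp of the summit in 17 of the 42 peaks (40.5%, 27.0 to 55.5%), at a median distance of 64.5 bp. In Sos1 it lay 8 bp upstream of the summit, in Rundc3b 71 bp downstream and in Fxr2 73 bp upstream. The middle of the longest run of G and C lay within 50 bp in 219 of 377 peaks (58.1%, 53.1 to 63.0%), at a median distance of 43 bp. In Pdgfc and Usp12 the middle of the run lay 2 bp upstream of the summit, and in Dlg5 1 bp downstream. Repeats and runs were searched only in the 200 bp around the summit. The distances of elements placed anywhere in that window were not computed, so a gathering at summits was not tested. Since reads were extended to 200 bp, a summit places a break only roughly.

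**Figure D4:**
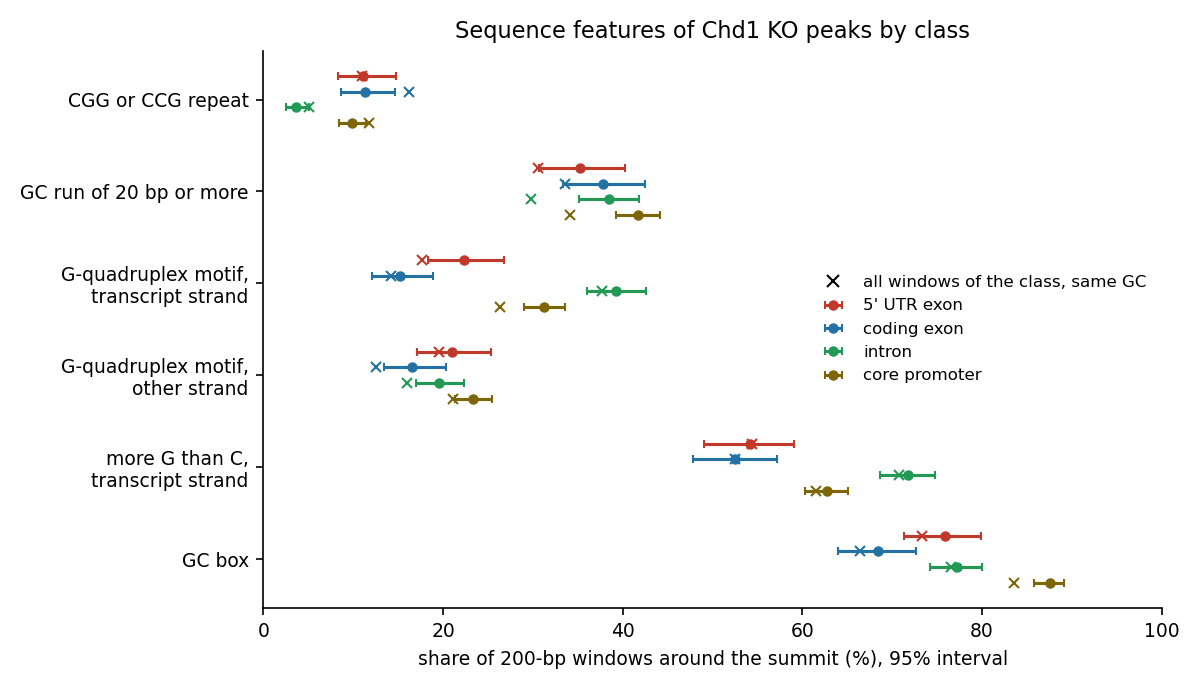
Share of peaks (horizontal axis, %) with each of 6 sequence features in the 200 bp around the summit, for Chd1 KO peaks in 5′ UTR exons (377), coding exons (434), introns (830) and core promoters (1560), as points with Wilson 95% intervals. Crosses give the share among all windows of the same class weighted to the GC content of the 5′ UTR peaks. The 5′ UTR peaks lie well below intron peaks for G-quadruplex motifs on the transcript strand and for an excess of G over C, and above them for CGG or CCG repeats.

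The strand that carried the G residues differed between 5′ UTR exons and introns. A G-quadruplex motif, 4 runs of at least 3 G parted by 1 to 7 bases, lay on the transcript strand in 84 of the 5′ UTR peaks (22.3%), against 39.3% of intron peaks, a difference of −17.0 points (−22.2 to −11.5). On the other strand, where the same motif reads as runs of C in the transcript, the shares were 21.0% and 19.5%, with a difference of 1.44 points (−3.31 to 6.52). Core promoter peaks had the motif on the transcript strand in 31.3%, 9.0 points more than 5′ UTR peaks (4.0 to 13.6), and coding exon peaks in 15.2%, 7.07 points fewer (1.70 to 12.5).

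In the same way, more G than C stood on the transcript strand in 54.1% of the 5′ UTR peaks, against 71.8% of intron and 62.8% of core promoter peaks. The difference from intron peaks was −17.7 points (−23.5 to −11.8) and that from core promoter peaks −8.64 points (−14.2 to −3.12). The same order was seen in all windows of the same GC content, of which 54.4% in 5′ UTR exons and 70.8% in introns had more G than C. For the G-quadruplex motif on the transcript strand these windows gave 17.7% and 37.7%, so both differences were also present in sequence of the same GC content at large.

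Short motifs of promoters were searched on both strands, and a match is a description of the letters only. The GC box (GGGCGG), the core of the site of Sp1 and related factors, was in 75.9% of the 5′ UTR peaks, against 21.6% of all 5′ UTR windows and 73.3% of those with the same GC content. Core promoter peaks had it in 87.6%, 11.7 points more (7.30 to 16.5). Core promoter windows with the GC content of the 5′ UTR peaks held it in 83.5%, so a difference was also present in sequence at large. An ETS motif (CCGGAAG) was in 11 of the 377 peaks, an E-box (CACGTG) in 12, an NRF1 motif (GCGCATGC) in 5 and a YY1 motif (AAGATGGC) in 4. Of all 5′ UTR windows 2.84%, 2.59%, 0.495% and 1.37% held these 4 motifs. Alternating CG of at least 4 units, which can overlap the other features, lay in 30 peaks (7.96%), against 1.30% of all windows and 6.80% of those with the same GC content.

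The genes were then grouped by what they do, with 10 lists of genes. Each list is a selection from its class, and the counts and ranks below hold for listed genes only. Most genes with a peak were on none of the lists, among them Ttbk1, Kcnmb4, Ncor1 and Gatad2a. Each count below is read against the 3.05% of all 12314 genes, and against the 14.9% (13.5 to 16.4%) of the 2380 genes whose richest window held at least 75% GC. The lists share some genes, and were not tested, since they were chosen with results of these data known.

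The list of ubiquitin ligases and deubiquitinases, which mark proteins for degradation or remove the mark, also holds E2 enzymes. Of its 99 genes 15 had peaks (15.2%, 9.40 to 23.5%). Among the 56 listed genes with a richest window of at least 75% GC, 14 had one (25.0%, 15.5 to 37.7%). The highest on the list were Ube2r2, an E2 enzyme of the SCF complexes, with a fold enrichment of 5.69, Rnf111, a ligase of TGF-β signaling, with 5.58, and Trim8 with 5.57. Smurf1, which targets Smad proteins, and Usp12 were further members, with 5.06 and 4.58.

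Pluripotency factors had peaks in 4 of 23 genes (17.4%, 6.98 to 37.1%), Klf5, Sox2, Klf4 and Trim28, of which the last was named after its value was seen. Among the 9 with a GC-rich window these 4 were 44.4% (18.9 to 73.3%). Sox2 had a fold enrichment of 4.21 (17 reads over 3.28) with its summit 86 bp before the start codon in exon 1. Klf5 had 4.37, 17 bp before the start codon, Klf4 had 3.97, in an exon without start codon, and Trim28 had 3.88. All 4 lay below the median of 4.54. Klf5, Sox2 and Klf4 are regulators of self-renewal in ES cells, and the longest run of G and C in the 200 bp around each summit is therefore shown in full, on the transcript strand of mm9.
Sox2, chr3:34549301-34549328, plus strand: GGCGGCCGCCGGCGGGCCGCGCCCGCCC
Klf5, chr14:99698112-99698133, plus strand: CCCCCGCCGCGGCCCCCCGCCG
Klf4, chr4:55545276-55545291, minus strand: GGCGGGCGGCGGCGGC
These runs of 28, 22 and 16 bp lay 63 bp downstream, 74 bp upstream and 64 bp upstream of the summit, none of them beneath it.

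Homeobox and other developmental transcription factors on the list had peaks in 9 of 98 genes (9.18%, 4.91 to 16.5%), and in 8 of the 40 with a GC-rich window (20.0%). Pitx3, a regulator of dopaminergic neurons, had a fold enrichment of 5.37, En2, which patterns the midbrain and hindbrain, had 5.22, and Zfhx3 had 4.83. Sox2 was also on this list. The listed chromatin regulators, which leave out Ncor1 and Gatad2a, had peaks in 7 of 86 genes (8.14%, 4.00 to 15.9%). The highest of these 7 were the Polycomb subunit Pcgf3 with 5.98, the acetyltransferase scaffold Brpf3 with 5.71 and the remodeler Ino80 with 5.58. Of the 42 listed chromatin genes with a GC-rich window these 7 were 16.7%.

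Genes of Wnt, Fgf, Bmp, Notch and Hedgehog signaling on the list had peaks in 6 of 85 genes (7.06%, 3.28 to 14.6%). Fzd7 had the highest fold enrichment among them, followed by Smad7, an inhibitor of TGF-β signaling, with 4.83 and Spry1, an inhibitor of receptor tyrosine kinases, with 4.34. Listed protein kinases and phosphatases of cell signaling had peaks in 8 of 114 genes (7.02%, 3.60 to 13.2%). The highest of these 8 were the polarity kinase Mark3 (5.74), the MAP kinase phosphatase Dusp8 (5.53) and the phosphatase Ptpn11 (4.96). Among the genes with a GC-rich window the shares were 13% (6.12 to 25.7%) and 12.7% (6.58 to 23.1%), near the share of all such genes.

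The listed genes of potassium, calcium and sodium channels, which leave out Kcnmb4, had peaks in 3 of 73 (4.11%, 1.41 to 11.4%). These were Kcng3 with a fold enrichment of 6.45, the T-type calcium channel gene Cacna1i with 4.56 and Kcna2 with 3.90. Of the 27 listed channel genes with a GC-rich window these 3 were 11.1% (3.85 to 28.1%). Double-strand break repair and checkpoint genes had a peak in 1 of 56 (1.79%, 0.316 to 9.45%), Topbp1, an activator of the ATR kinase, with 4.88. It was 1 of the 6 repair and checkpoint genes with a window of at least 75% GC (16.7%, 3.01 to 56.4%).

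Genes with a known regulatory 5′ UTR, such as those with upstream open reading frames or internal ribosome entry sites, had peaks in 4 of 47 (8.51%, 3.36 to 19.9%). Eif5 had a fold enrichment of 5.02, Mycl1, a member of the Myc family, 4.44, and Pdgfb, a growth factor with a long structured leader, 3.99. Sod2, named after its value was seen, had 3.79. Genes with a CGG repeat in the 5′ UTR or promoter of the human gene had a peak in 1 of 17 (5.88%, 1.05 to 27.0%), Zic2, a zinc finger transcription factor of forebrain development, with 4.01 and no repeat of 4 units in its window. Among the 12 genes with a GC-rich window that each of these lists held, 3 and 1 had a peak.

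**Figure D5:**
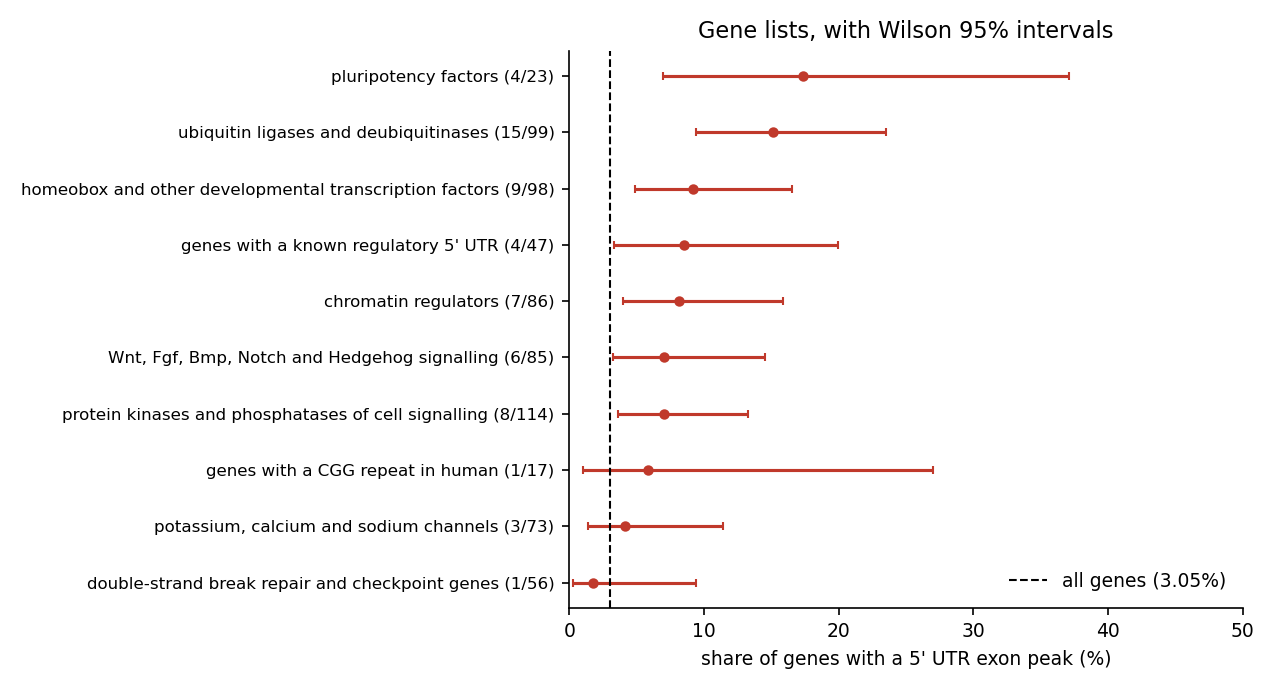
Share of genes with a Chd1 KO peak in 5′ UTR exon sequence (horizontal axis, %) for 10 gene lists, as points with Wilson 95% intervals, with the number of genes with a peak and the number of genes in brackets. The dashed line marks the 3.05% of all 12314 genes, and the lists range from 1.79% for repair and checkpoint genes to 17.4% for pluripotency factors.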

How the data were processed

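DSB-seq of Chd1 KO and control ES cells, 2 replicates each, was analyzed from the 1 peak list per genotype that the authors deposited. Per the labels and the methods of the study, the authors mapped reads to mm9 with Bowtie2, removed those with a mapping quality under 13, left at most 1 read at a position, pooled both replicates and ran MACS2 (extension to 200 bp, q-value cutoff 0.05) and removed blacklisted peaks. The deposited fold enrichment is a ratio within each combined library. The deposited −log10 p-value and −log10 q-value are the authors' values at the summit, and the deposited score repeats the q-value and was not used otherwise. The ChIP-seq samples were not analyzed here.

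The reads and the background of a summit were computed back from its Poisson p-value and its fold enrichment, which is reads plus 1 over background plus 1. Depth was the lowest background scaled to MACS2's mouse genome size. TSSs of all GENCODE M1 transcripts were used. GC content was taken in 200 bp, in strata of 5 percentage points, and distances in strata with edges at 100, 200, 400, 800, 1600 and 3200 bp. Background windows were taken every 10 bp in 5′ UTR exons and every 100 bp elsewhere. Shares carry Wilson 95% intervals, and a share of 0 the limit of 3 counts. These functions were tested on simulated data.

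The 5′ UTR peaks and the gene lists were chosen with earlier results of these data known, and a symbol of the pluripotency list was replaced by Tcf7l1, because the annotation gives it to another gene. Named were the 10 peaks with the highest fold enrichment, those with the 8 longest repeats and the 5 longest runs of G and C, the 3 nearest to the 100-bp limit on either side, the 3 farthest from the TSS, any gene with 3 or more peaks, and up to 3 genes per list. Some genes are not reported here. Alternatives changed the position taken for a peak, the distance limit, the TSSs, the q-value, the fold enrichment, the chromosomes, the GC window, the strata, the length of repeats and runs, and the window searched. Tables were made with pandas 2.3.3, statistics with SciPy 1.17.1 and NumPy 2.4.6, and figures with Matplotlib 3.10.9, all under Python 3.11.15.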

Additional observations from a re-analysis of the deposited data

How the results depend on the processing

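The number of 5′ UTR peaks, 377, ranged from 289 to 548 under 6 alternatives and was 173, in 173 genes, with a distance limit of 200 bp. With the midpoint of the peak in place of the summit it was 388, of which 275 were the same peaks. The ratio of densities against coding exons was 0.972, on the other side of 1, with TSSs of protein-coding transcripts only, and its interval left out 1 with a GC window of 500 bp (1.19) and without strata of distance (1.15). Against introns it was 1.01 with a GC window of 100 bp, on the other side of 1, and 0.870, with an interval that left out 1, with 500 bp. Against core promoters the interval left out 1 with a GC window of 500 bp (0.812), with a q-value of at most 0.001 (0.888) and with TSSs of protein-coding transcripts (0.886). First against later 5′ UTR exons, a ratio that rests on 4 peaks in later exons, was above 1 in 5 of 6 alternatives (1.11 with a GC window of 100 bp, 1.02 with 500 bp, 1.09 with the stricter q-value, 1.07 with TSSs of protein-coding transcripts and 1.33 without strata of distance), with 1 inside every interval. The cause of these shifts was not tested. Shares of peaks moved with the definition by construction: a repeat of at least 3 units was in 25.7%, of at least 6 in 2.39%, and of 4 anywhere in the peak in 16.4%; a run of G and C of at least 20 bp in 35.3%, and of 12 bp anywhere in the peak in 98.4%; a G-quadruplex motif on either strand in 39.8% around the summit and in 58.9% of whole peaks. The median fold enrichment and the count of 0 peaks overlapped by a control peak stayed the same under the alternatives run for them. No paired analysis was possible because the authors merged the replicates before peak calling, and for the same reason no replicate could be left out. Depth limits the list to sites with at least 13 reads.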
